A study of Rattus norvegicus with 15 samples.

Results

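The flavin monooxygenases (FMO) Fmo1, Fmo2, Fmo4 and Fmo5 were followed across 15 RNA-seq libraries of rat lung. The 4 genes were taken by symbol from the 22250 genes of the deposited table, each stood there once, and all 4 passed the filter on low values. They had been picked with their levels in these libraries already known, so their own levels and differences are given as a description. How many of them the fit over all genes called is stated once, beside the share of all genes called, and is not used as evidence. Fmo6, Fmo9 and Fmo13, also in the table, were not picked and are described beside them.

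The study asked how Sang Ju Yin (SJY), a herbal formula of Chinese medicine, acts on acute lung injury (ALI) caused by lipopolysaccharide (LPS), a component of the bacterial outer membrane. All rats were labelled wild type. In the SJY group LPS was given into the trachea and the formula into the stomach, in the ALI group LPS was given into the trachea alone, and the control group was labelled normal, with 5 libraries in each group. The labels give no strain, sex, age, dose or time, name no group given only a vehicle or an empty instillation, and do not say whether a library is 1 animal or a pool. The p-values therefore measure the spread between these samples, which may be technical.

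FMO enzymes sit in the membrane of the endoplasmic reticulum. They hold a flavin cofactor (FAD), which NADPH reduces and molecular oxygen then loads, and they pass 1 oxygen atom to the nitrogen or sulfur of foreign compounds such as drugs and pesticides. FMO2 is the main form in the lung of many mammals, although in many laboratory rats the gene is known to encode a truncated protein, so its RNA level says nothing of enzyme activity here. FMO1 has a broad range of substrates and, in human and mouse, oxidises hypotaurine to taurine. FMO5 in human acts mostly on ketones, by a Baeyer-Villiger reaction, and FMO4 is little characterised.

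In the rat genome assembly GRCr8 Fmo4, Fmo1, Fmo2 and Fmo6 stand on chromosome 13 in that order, and Fmo5 lies apart on chromosome 2. The RefSeq promoter table held 3 of the 4 members, Fmo1, Fmo2 and Fmo5. The 250 bases before each start are shown 5′ to 3′ on the gene's own strand, for the neighbouring genes Fmo2 and Fmo1, both lower in ALI and SJY lungs, and for Fmo5, whose groups overlapped. Capitals mark the matches to any of 6 short motifs searched on both strands.

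Fmo2: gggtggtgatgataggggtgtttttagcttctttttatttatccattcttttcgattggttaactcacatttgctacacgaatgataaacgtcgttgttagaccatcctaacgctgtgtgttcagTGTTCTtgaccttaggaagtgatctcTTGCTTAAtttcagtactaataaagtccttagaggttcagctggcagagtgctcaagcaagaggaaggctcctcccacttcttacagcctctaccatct
Fmo1: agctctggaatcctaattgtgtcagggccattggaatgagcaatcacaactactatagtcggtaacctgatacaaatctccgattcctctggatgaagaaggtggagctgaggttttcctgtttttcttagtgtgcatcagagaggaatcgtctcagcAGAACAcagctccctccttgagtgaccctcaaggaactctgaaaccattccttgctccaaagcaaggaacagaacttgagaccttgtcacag
Fmo5: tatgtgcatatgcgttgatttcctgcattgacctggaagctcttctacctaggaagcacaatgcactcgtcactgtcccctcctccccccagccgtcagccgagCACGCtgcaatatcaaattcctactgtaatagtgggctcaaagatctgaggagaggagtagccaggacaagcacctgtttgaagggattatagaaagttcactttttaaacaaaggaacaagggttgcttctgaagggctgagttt

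The Fmo2 stretch lies at chr13:77777535-77777784 and the Fmo1 stretch at chr13:77747667-77747916, both on the minus strand of GRCr8, and the Fmo5 stretch at chr2:187910714-187910963 on the plus strand. These positions are of another build than the Rnor_6.0 build of the expression values. Fmo2 held the glucocorticoid receptor hexamer TGTTCT at 125 to 120 bases before the start, and Fmo1 held it on the other strand, read as AGAACA, at 92 to 87 bases before the start. That hexamer stood in 17.5% of the 33469 promoter stretches of the same length. Fmo2 also held a C/EBP match, TTGCTTAA (searched as TTGCNNAA, in 9.22% of stretches), at 99 to 92 bases before the start. Fmo5 held the aryl hydrocarbon receptor core GCGTG on the other strand, read as CACGC, at 146 to 142 bases before the start, and that core stood in 25.9% of stretches. The antioxidant response core TGACNNNGC (10.1%), the NF-kB motif of GGGA and TTCC with any 2 bases between them (1.08%) and the TATA box TATAAA (12.9%) were not among the letters of these 3 windows. A match of letters is a description and shows no binding.

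Values are FPKM, fragments per kilobase of transcript per unit of mapped fragments, as deposited, so levels of different genes are compared per length. Log2 changes are on the log2(FPKM + 1) scale, with standard errors from limma fitted to the 13457 genes at 1 FPKM or more in at least 5 libraries. Genes with a Benjamini-Hochberg adjusted p under 0.05 are those called. Genes at 1 FPKM or more numbered 11865 to 13313 per library, and read depth is unknown. Mitochondrial genes took 10.4% to 17.1% of summed FPKM in SJY, 8.31% to 14.1% in 4 ALI libraries and 5.19% to 9.62% in control. ALI replicate 1 stood apart at 37.7%, so values are also given without it. Surfactant gene Sftpc, which marks lung, was between 10385 and 13774 FPKM in SJY, 2476 and 12347 FPKM in ALI, and 9156 and 15268 FPKM in control.

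Fmo2 (ENSRNOG00000003510) was the most abundant member by mean and was far lower in both LPS-treated groups than in control. Its levels were 86.9, 96.2, 89.1, 178 and 143 FPKM in the SJY libraries, 16.2, 178, 104, 192 and 254 FPKM in the ALI libraries, and 580.3, 997, 970.0, 996 and 979 FPKM in the control libraries. Every SJY and ALI library lay below every control library, and the SJY and ALI ranges overlapped. The mean was 119 ± 40.4 FPKM in SJY, 149 ± 91.5 FPKM in ALI and 904.5 ± 182 FPKM in control (SD, n = 5 each). By these means Fmo2 was 6.07-fold lower in ALI and 7.62-fold lower in SJY than in control. On the log2 scale the difference was -3.01 ± 0.54 for ALI against control, -2.95 ± 0.54 for SJY against control and 0.06 ± 0.54 for SJY against ALI. Without ALI replicate 1 the difference of ALI from control was -2.35 and that of SJY from ALI was -0.60. In SJY replicate 1 Fmo1, at 92.0 FPKM, stood above Fmo2, at 86.9 FPKM, and in each of the other 14 libraries Fmo2 was the higher. Ranked among the genes tested, where rank 1 is the highest level, Fmo2 stood at a median rank of 879 in SJY, 392 in ALI and 29 in control.

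Fmo1 (ENSRNOG00000034191) had the second highest level and was also lower than in control, by a smaller factor. Its levels were 92.0, 69.0, 49.2, 66.5 and 55.0 FPKM in SJY, 5.81, 64.3, 46.9, 84.1 and 63.4 FPKM in ALI, and 135, 198, 152, 112 and 140 FPKM in control. No SJY or ALI library reached the lowest control library, while the ranges of SJY and ALI overlapped. The mean was 66.3 ± 16.5 FPKM in SJY, 52.9 ± 29.4 FPKM in ALI and 147 ± 31.9 FPKM in control (SD, n = 5 each). The log2 difference was -1.83 ± 0.50 for ALI against control, -1.15 ± 0.50 for SJY against control and 0.68 ± 0.50 for SJY against ALI. The last value rested on ALI replicate 1, since without it SJY differed from ALI by 0.03, and ALI differed from control by -1.18.

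Fmo4 (ENSRNOG00000003400) was a low member whose groups overlapped in every comparison. Its levels were 5.14, 6.67, 5.96, 8.27 and 6.18 FPKM in SJY, 0.782, 9.24, 4.46, 5.58 and 7.93 FPKM in ALI, and 5.60, 7.98, 6.57, 8.78 and 7.95 FPKM in control. The lowest and the highest value of all 15 libraries were both in the ALI group. The log2 difference was -0.55 ± 0.35 for ALI against control, -0.17 ± 0.35 for SJY against control and 0.38 ± 0.35 for SJY against ALI. Without ALI replicate 1 these were -0.13, -0.17 and -0.04.

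Fmo5 (ENSRNOG00000018076) was the member closest to control in both LPS-treated groups on the log2 scale. Its levels were 4.50, 8.68, 8.80, 10.8 and 7.38 FPKM in SJY, 7.53, 7.32, 15.6, 7.27 and 8.23 FPKM in ALI, and 4.02, 7.56, 12.1, 11.4 and 8.66 FPKM in control. The lowest library was a control and the highest an ALI library, and all 3 ranges overlapped. The mean was 8.02 ± 2.31 FPKM in SJY, 9.19 ± 3.59 FPKM in ALI and 8.75 ± 3.24 FPKM in control (SD, n = 5 each). The log2 difference was 0.08 ± 0.27 for ALI against control, -0.08 ± 0.27 for SJY against control and -0.16 ± 0.27 for SJY against ALI. In ALI replicate 1, where Fmo1, Fmo2 and Fmo4 each had their lowest value of the 15 libraries, Fmo5 was at 7.53 FPKM, inside the range of the other ALI libraries.

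**Figure D1:**
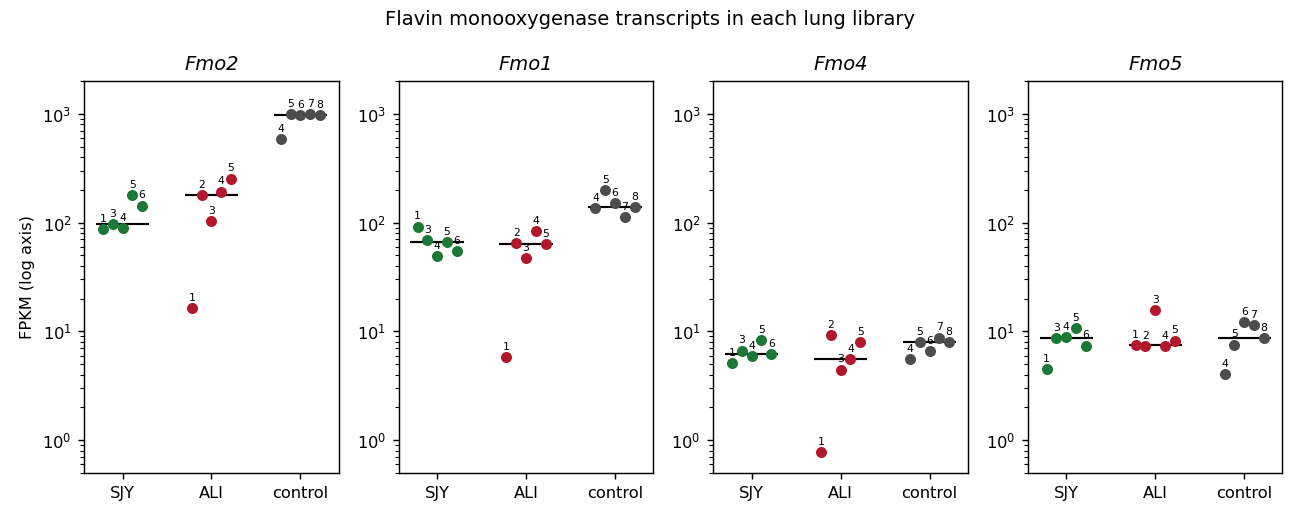
FPKM on a log axis of the members in each library, with SJY, ALI and control from left to right, the replicate number above each point and a bar at the group median. The control libraries of Fmo2 sit between 580.3 and 997 FPKM, above every SJY and ALI library, while the groups of Fmo4 and Fmo5 overlap.

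Set against all genes, 2 of 4 members (Fmo1 and Fmo2) were called in ALI against control, where 17.6% of the 13457 genes were called and 9.56% were called lower. In SJY against control 1 of 4 (Fmo2) was called, where 32.6% of genes were called and 18.1% called lower. In SJY against ALI 0 of 4 was called, where 0.00743% of genes were called (1 gene). There 0 of 4 had an unadjusted limma p under 0.05, where 1587 of all genes had one. Without ALI replicate 1 it was 1 of 4, where 2636 of all genes had one. Fmo1 and Fmo2 did not overlap control in either comparison. The groups did not overlap for 12.9% of all genes in ALI against control (ALI below control for 6.73%), for 27.7% in SJY against control (SJY below control for 15.9%) and for 3.23% in SJY against ALI. Without control replicate 5 the count in ALI against control was 1 of 4 (Fmo2), and the count in SJY against control was 2 of 4 (Fmo1 and Fmo2) without ALI replicate 1, with array weights or with only the 2 groups compared. With only the 2 groups compared the count in ALI against control was also 1 of 4 (Fmo2). With replicate numbers fitted as a block that count was 0 of 4, where 313 of all genes were called. The members were picked on these levels, so nothing is read from their counts. Over all genes the median log2 difference was -0.12 for ALI against control, -0.11 for SJY against control and 0.03 for SJY against ALI. The 2 comparisons with control share the control libraries, and SJY against ALI shares the ALI libraries with one of them.

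**Figure D2:**
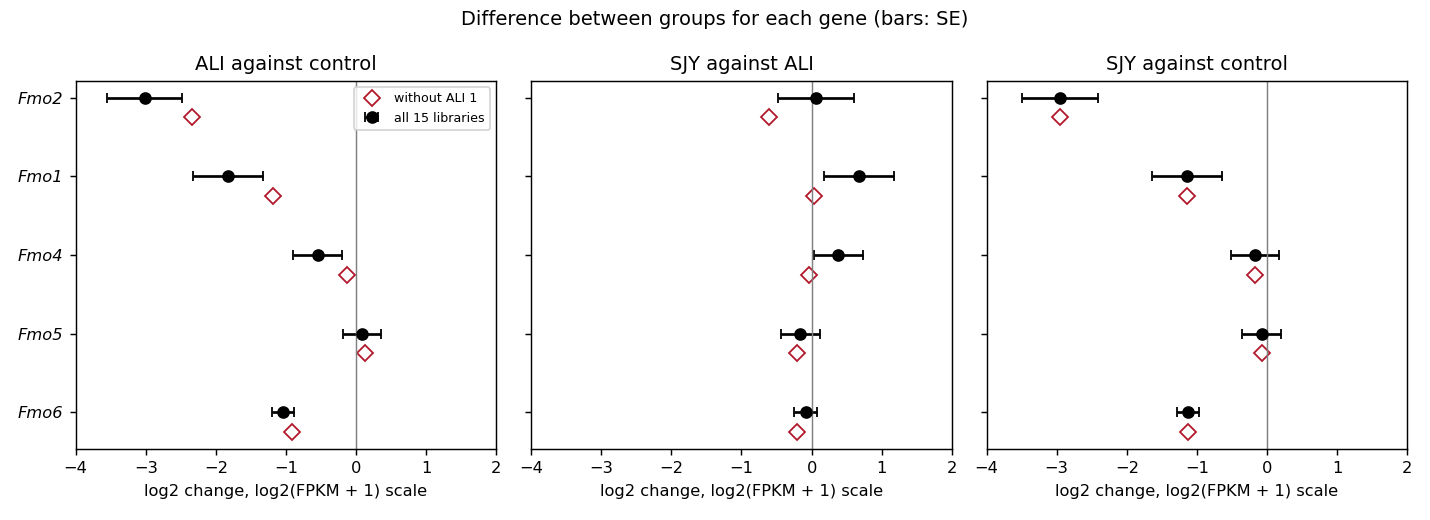
Log2 change, on the log2(FPKM + 1) scale, of each family gene shown in the 3 comparisons, with bars of 1 standard error from limma. Fmo2 lies near -3 and Fmo1 between -1 and -2 against control, and Fmo5 lies near 0. Open points leave out ALI replicate 1, and Fmo4 lies at -0.55 for ALI against control with it and at -0.13 without it.

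Fmo6 (ENSRNOG00000049851), of the chromosome 13 cluster, was near 0 throughout, at 0.207 to 0.385 FPKM in SJY, 0 to 0.879 FPKM in ALI and 1.63 to 2.16 FPKM in control. It passed the filter only through its 5 control libraries, so a difference from control was bound to appear, and its limma log2 values were -1.04 ± 0.16 for ALI and -1.13 ± 0.16 for SJY. Fmo9 was listed above 0 in 1 library, ALI replicate 5, at 0.0275 FPKM, and Fmo13 was listed at 0 in all 15. An entry of 0 can also be an estimate that failed, and how reads shared by close relatives such as these were divided is not given in the sources used here.

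The make-up of the family, taken as each gene's share of the summed FPKM of the 7 family genes described here, differed between the groups. The sum was 199.8 ± 41.6 FPKM in SJY, 217 ± 120.3 FPKM in ALI and 1069.9 ± 195 FPKM in control (SD, n = 5 each). Fmo2 made up 58.5 ± 9.31% of it in SJY, 65.03 ± 8.48% in ALI and 84.2 ± 3.26% in control. Fmo1 made up 34.01 ± 9.74% in SJY, 23.9 ± 4.65% in ALI and 14.1 ± 3.39% in control. Fmo5 took 4.10 ± 1.28% in SJY, 8.34 ± 9.63% in ALI and 0.801 ± 0.226% in control, with ALI replicate 1 the highest at 24.8%, although its level overlapped between the groups. The ratio of Fmo2 to Fmo1 ran between 0.945 and 2.68 in SJY, 2.21 and 4.01 in ALI, and 4.31 and 8.88 in control. The ratios of SJY and ALI libraries overlapped each other, and neither overlapped those of control. Fmo1 and Fmo2 were picked with these levels known, so the shares and ratios are a description and nothing is read from them.

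**Figure D3:**
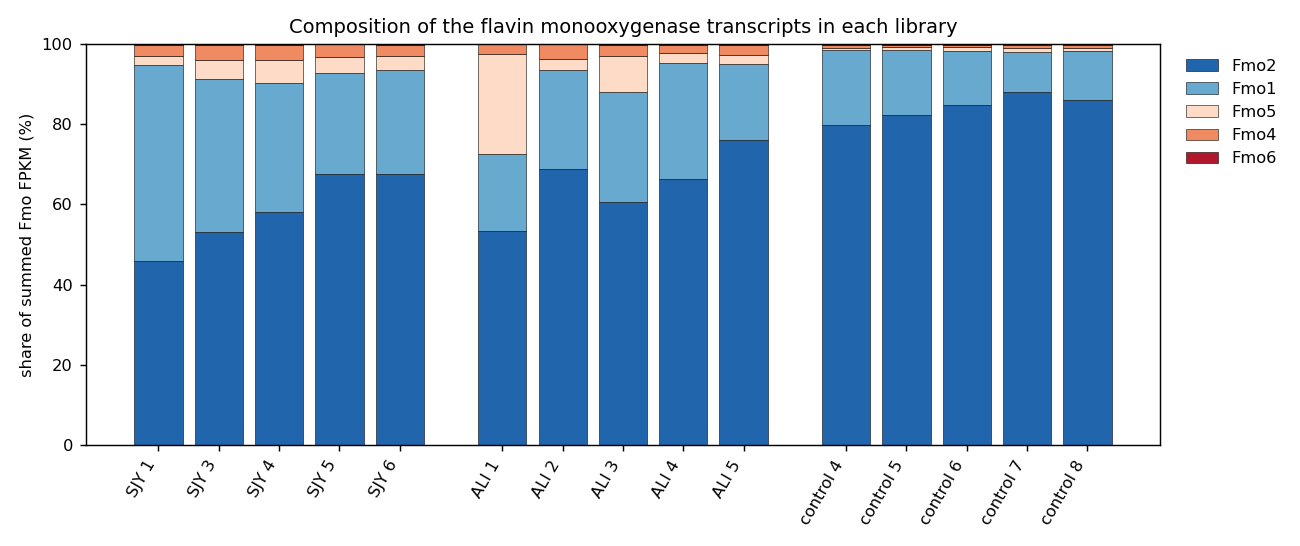
Share of the summed FPKM of the family genes described taken by each in every library, in percent, with SJY, ALI and control from left to right. Fmo2 holds a mean of 58.5% in SJY and 65.03% in ALI, against 84.2% in control.

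The genes next to the members were examined for a like difference. Of the 10 nearest genes tested around the chromosome 13 cluster, 1 was higher in ALI than in control and 0 were lower, where 8.02% of all genes were called higher and 9.56% lower, so the counts are near those shares. That gene was Prrx1, a homeobox factor of mesenchymal cells, with 5.53 ± 1.97 FPKM in ALI and 2.10 ± 0.824 FPKM in control (log2 1.07 ± 0.24, limma adjusted p = 0.00812). In SJY against control 0 of these 10 were higher and 2 lower, where 18.1% of all genes were called lower. These were Suco (log2 -0.58 ± 0.21) and Kifap3 (log2 -0.42 ± 0.14). Of the 10 nearest to Fmo5, 0 were higher in either comparison with control, and 2 were lower in ALI and 3 in SJY, set against the same shares of all genes. Bcl9, a cofactor of beta-catenin, had a log2 difference of -1.0 ± 0.24 in ALI and -0.95 ± 0.24 in SJY, and Prkab2, a subunit of the energy sensor AMP-activated kinase, one of -0.70 ± 0.15 in ALI and -0.61 ± 0.15 in SJY. Pde4dip was lower in SJY, with a log2 difference of -0.79 ± 0.23. The call of Suco ended when any of 11 libraries was left out (SJY 1, 3, 4 or 5, ALI 2, 3, 4 or 5, control 6, 7 or 8; adjusted limma p 0.0528 to 0.117), and that of Kifap3 when any of 6 was (SJY 3, 4 or 6, control 6, 7 or 8; adjusted limma p 0.057 to 0.0958). The call of Suco also ended with no filter (limma, adjusted p = 0.0618) or a pseudocount of 0.1 (0.0545), and that of Kifap3 with libraries rescaled (0.0705).

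Genes that serve FMO enzymes or share their substrates were counted in 9 lists, 1 of them the other FMO genes. Of 82 genes listed, 73 were found in the table and 62 were tested. In ALI against control 5 rose and 19 fell, with a median log2 change of -0.33, beside -0.12 over all genes, where 8.02% of all genes were called higher and 9.56% lower. In SJY against control 9 rose and 17 fell, with a median of -0.18, beside -0.11 over all genes, where 14.6% of all genes were called higher and 18.1% lower. In SJY against ALI limma called 0, and the median was 0.09, beside 0.03 over all genes. An unadjusted limma p under 0.05 was found there for 13 of the 62, and for 1587 of all 13457 genes tested. With libraries rescaled by their median ratio to the gene means, 9 rose and 17 fell in ALI against control. The genes that fell include Fmo6, which had to differ by its filter. Without Fmo6, 5 rose and 18 fell of 61 in ALI against control (median -0.32), and 9 rose and 16 fell in SJY against control (median -0.18). Still counted there are Aox3 and Nr3c2, called lower in both comparisons, which could not have passed the filter without their control libraries. Aox3 was at 0.292 to 0.548 FPKM in SJY, 0.293 to 2.36 FPKM in ALI and 1.09 to 3.60 FPKM in control. The lists were chosen with results of these data known, so nothing is read from their counts, pooled or list by list. The counts of single lists below stand beside the same shares of all genes.

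No gene of cofactor supply was called lower against control. For FAD, 0 of 5 genes passed in ALI against control. Of them 1 had an unadjusted limma p under 0.05, where 4714 of all 13457 genes had one. Rfk, which makes the FAD precursor FMN, had 19.4 ± 7.51 FPKM in ALI and 18.0 ± 2.29 FPKM in control, and Flad1, which makes FAD from it, had 15.4 ± 3.22 FPKM in ALI and 12.3 ± 1.10 FPKM in control. In SJY the riboflavin transporter Slc52a2 rose by 0.37 ± 0.13 on the log2 scale (limma, adjusted p = 0.0377). That call ended when any of 8 libraries was left out (SJY 1, 4, 5 or 6, control 4, 5, 6 or 7; adjusted limma p 0.0579 to 0.0921). With libraries rescaled Flad1 passed in ALI against control, with a log2 change of 0.42 (limma, adjusted p = 0.0397). For NADPH, 1 of 6 genes rose and 0 fell in each comparison with control. The log2 change of Nadk, which makes NADP from NAD, was 0.40 ± 0.10 in ALI and 0.61 ± 0.10 in SJY, and its call in ALI ended with only the 2 groups compared (limma, adjusted p = 0.0502).

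Of 6 genes listed for microsomal electron transfer, not all of them confined to that membrane, 1 fell in ALI and the same 1 in SJY. It was Por, the reductase that feeds P450 enzymes, with 87.3 ± 10.6 FPKM in SJY, 87.5 ± 19.3 FPKM in ALI and 148 ± 15.8 FPKM in control (limma, adjusted p = 0.00168 in SJY and 0.00267 in ALI). Of 6 genes that reduce S- and N-oxygenated products, 1 rose and 3 fell in each comparison with control. Msrb1, a selenium-containing methionine sulfoxide reductase, rose by 0.96 ± 0.13 in ALI and 1.39 ± 0.13 in SJY. Marc1, a molybdenum enzyme that reduces N-hydroxylated compounds, had a log2 change of -0.99 ± 0.20 in ALI and -1.19 ± 0.20 in SJY, and Msrb3 one of -0.50 ± 0.14 in ALI and -0.63 ± 0.14 in SJY. The other gene that fell was Marc2 in ALI (-0.50 ± 0.16) and Msra in SJY (-0.92 ± 0.25). The call of Marc2 ended when any of 11 libraries was left out (every one but SJY 1 and ALI 1, 4 and 5; adjusted limma p 0.0523 to 0.0969), and that of Msrb3 in ALI without ALI 3, control 6 or control 7 (adjusted limma p 0.0508 to 0.0601). The call of Marc2 also ended with a pseudocount of 0.1 (limma, adjusted p = 0.0501), no filter (0.0597), no trend or robust settings (0.0521) or only the 2 groups compared (0.108). That of Msrb3 in ALI also ended with libraries rescaled (limma, adjusted p = 0.0818) or only the 2 groups compared (0.0566).

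Taurine synthesis and uptake, listed because FMO1 makes taurine, had 3 tested genes. Cdo1, which oxidises cysteine on the way to hypotaurine, had 71.3 ± 36.5 FPKM in ALI and 181 ± 24.2 FPKM in control, a log2 change of -1.51 ± 0.32 (limma, adjusted p = 0.0055). In SJY Cdo1 had 106 ± 28.2 FPKM and did not pass the test against control (limma, adjusted p = 0.069). The taurine transporter Slc6a6 fell in SJY, with 15.9 ± 6.37 FPKM in SJY and 35.4 ± 12.98 FPKM in control (log2 -1.09 ± 0.34), and had 20.3 ± 7.65 FPKM in ALI. The call of Slc6a6 ended without SJY 1, SJY 3, control 6, control 7 or control 8 (adjusted limma p 0.0502 to 0.0629).

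Other enzymes of foreign compounds moved in both directions. Of 14 oxidising or hydrolysing enzymes outside the P450 family, 6 fell and 0 rose in ALI, and 5 fell and 1 rose in SJY, against control. Aldh1a1, a retinal dehydrogenase, had 53.8 ± 20.2 FPKM in SJY, 40.8 ± 23.6 FPKM in ALI and 229.5 ± 35.3 FPKM in control, with log2 changes of -2.80 ± 0.48 in ALI and -2.15 ± 0.48 in SJY. The carboxylesterase Ces1d had 118 ± 12.5 FPKM in SJY, 113 ± 38.5 FPKM in ALI and 365 ± 52.7 FPKM in control, and the molybdenum enzyme Aox1 had 9.29 ± 2.09 FPKM in SJY, 8.57 ± 4.66 FPKM in ALI and 28.5 ± 5.51 FPKM in control. Smox, a spermine oxidase, rose in SJY by 0.53 ± 0.18. Of 13 conjugating enzymes, 2 rose and 4 fell in ALI, and 4 rose and 2 fell in SJY. Of all genes, 8.02% were called higher and 9.56% lower in ALI, and 14.6% higher and 18.1% lower in SJY. The glutathione transferases Gsta4 (log2 -1.51 ± 0.32 in ALI, -1.13 ± 0.32 in SJY) and Gsta1 (-1.22 ± 0.16 in ALI, -0.77 ± 0.16 in SJY) fell, and the sulfotransferase Sult1a1 fell in ALI (-0.86 ± 0.26). The glucuronosyltransferase Ugt1a6 rose by 0.81 ± 0.14 in ALI and 0.90 ± 0.14 in SJY, the methyltransferase Tpmt by 0.75 ± 0.21 in ALI and 0.83 ± 0.21 in SJY, and the membrane enzyme Mgst1 by 0.51 ± 0.11 in SJY. Without 1 library the calls of Smox in SJY (SJY 1, 4, 5 or 6, control 6, 7 or 8; adjusted limma p 0.056 to 0.102), Sult1a1 in ALI (ALI 3, control 5, 6, 7 or 8; adjusted limma p 0.0563 to 0.085) and Tpmt in ALI (control 5; adjusted limma p 0.0608) ended. With only the 2 groups compared those of Sult1a1 (limma, adjusted p = 0.092) and Tpmt (0.051) in ALI ended, and with no filter that of Sult1a1 (0.0512). Reads of the Gst and Ugt1a relatives may not have been told apart.

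Regulators reported for Fmo genes in any species were listed as 13 genes, of which 8 were tested. In ALI 1 rose and 3 fell, and in SJY 1 rose and 4 fell, against control. Cebpb, an inflammatory leucine zipper factor, had 283 ± 153 FPKM in SJY, 415 ± 89.5 FPKM in ALI and 91.4 ± 29.8 FPKM in control, with log2 changes of 2.20 ± 0.33 in ALI and 1.49 ± 0.33 in SJY. Nr3c1, the glucocorticoid receptor, had 26.7 ± 1.73 FPKM in SJY, 28.0 ± 5.66 FPKM in ALI and 40.0 ± 3.67 FPKM in control (limma, adjusted p = 0.00451 in SJY and 0.0129 in ALI). The mineralocorticoid receptor Nr3c2 had a log2 change of -0.97 ± 0.24 in ALI and -1.27 ± 0.24 in SJY. It was low, at 0.292 to 0.705 FPKM in SJY, 0.254 to 1.55 FPKM in ALI and 1.16 to 4.29 FPKM in control. Without its control libraries Nr3c2 could not have passed the filter, which favoured a fall against control. The forkhead factor Foxa2 had a log2 change of -0.71 ± 0.17 in ALI and -0.65 ± 0.17 in SJY. Arnt, the partner of the aryl hydrocarbon receptor, fell in SJY (-0.75 ± 0.20).

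**Figure D4:**
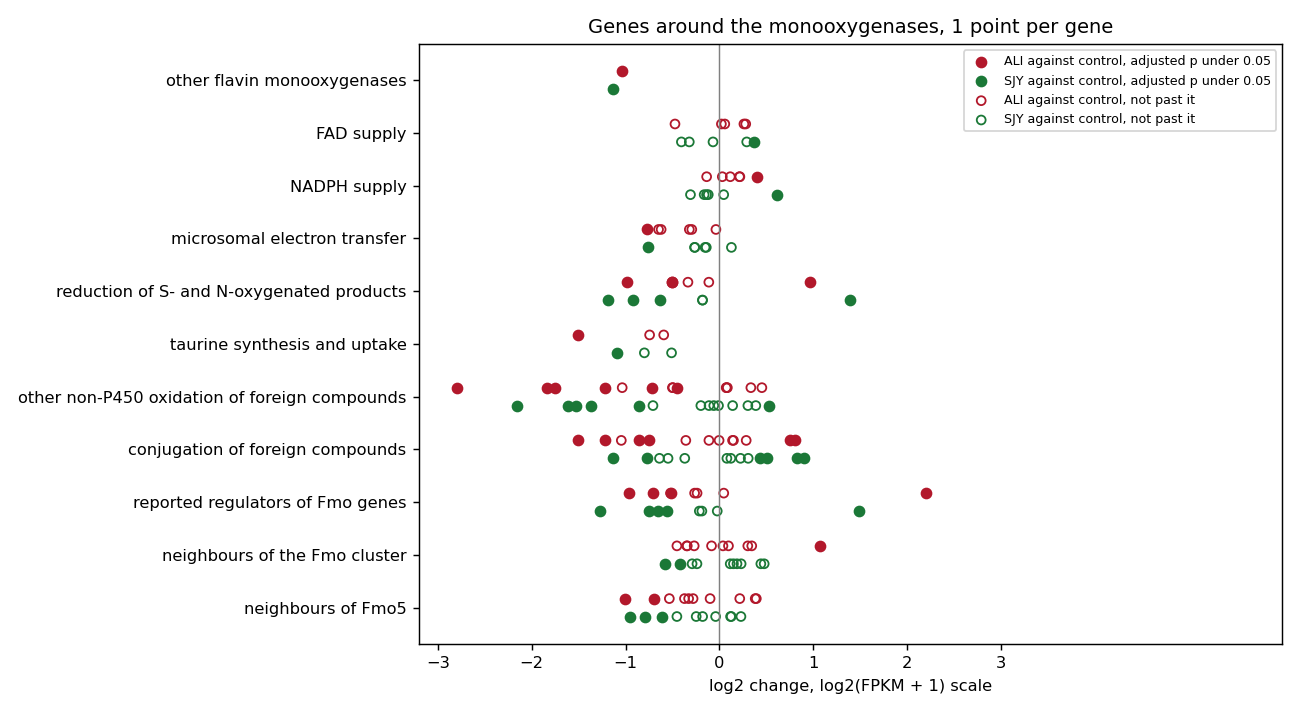
Log2 change against control, on the log2(FPKM + 1) scale, of each tested gene of the 9 lists and of the neighbouring genes, with 1 point per gene, ALI in red and SJY in green. Filled points have an adjusted p under 0.05. Aldh1a1 at -2.80 in ALI and Cebpb at 2.20 in ALI lie farthest from 0.

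For each member the 5 genes with the most similar profile were found as the smallest root mean square difference of log2 values over the 15 libraries, each gene centred on its control mean, among 9900 genes averaging at least 5 FPKM. This is a description of likeness only. Closest to Fmo2 were Susd2 (0.57), the amino acid transporter Slc7a10 (0.63), the proteoglycan Spock2 (0.66), Aldh1a1 (0.67) and the collagen chain Col6a5 (0.71). Closest to Fmo1 were Plac9 (0.27), the amine oxidase Aoc3 (0.29), the orphan receptor Gprc5a (0.31), the water channel Aqp5 (0.31) and the P450 enzyme Cyp2b1 (0.34). Fmo4 was nearest to Slx1b (0.21), the glycolytic enzyme Pfkm (0.21), the adenylyl cyclase Adcy3 (0.22), Slc22a18 (0.22) and agrin, Agrn (0.23). Fmo5 was nearest to Psd4 (0.28), the chromatin remodelling subunit Baz1a (0.29), Tbc1d1 (0.30), the receptor adapter Traf1 (0.30) and the kinase Map3k14 (0.31).

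**Figure D5:**
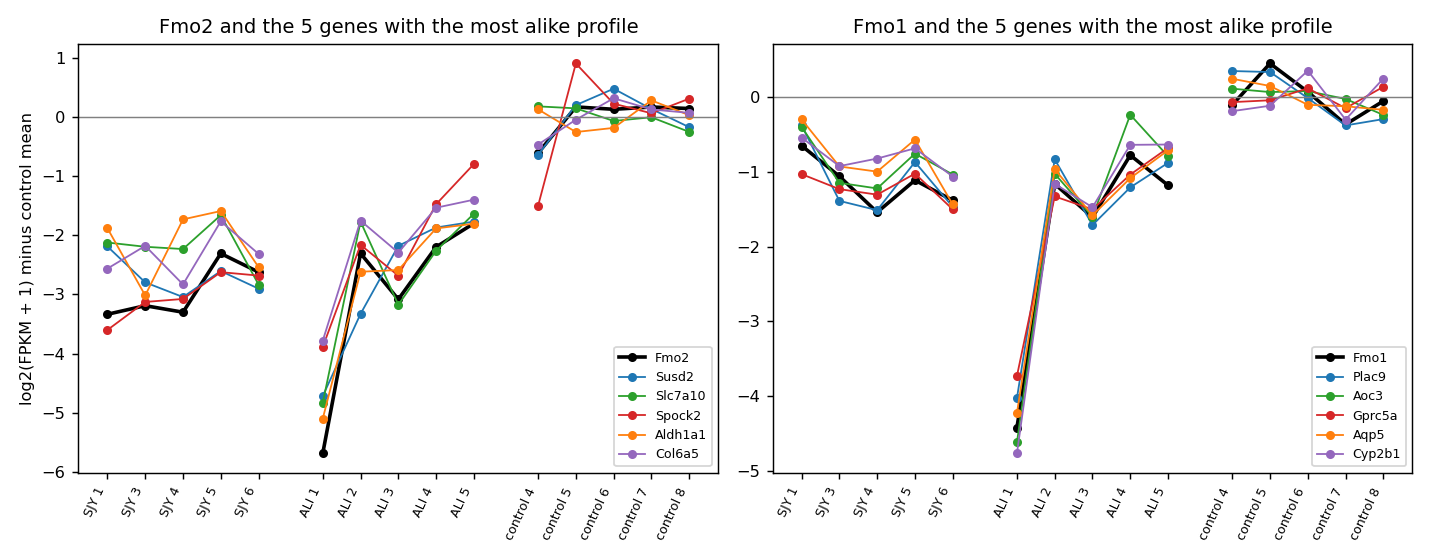
Difference of log2(FPKM + 1) from the control mean in each library for Fmo2 and Fmo1, in bold, and for the 5 genes of most similar profile to each, with SJY, ALI and control from left to right. ALI replicate 1 is the lowest point of both members.

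Whole lung RNA was measured, so fewer cells of a type and less RNA per cell cannot be told apart. The summed FPKM of 7 alveolar type I markers was between 1369 and 2234 in SJY, 549 and 1756 in ALI, and 2634 and 3669 in control. All 7 were called lower in ALI than in control and 5 of 7 in SJY. Markers counted here as lower or higher are those called. Of all genes, 9.56% were called lower and 8.02% higher in ALI, and 18.1% lower and 14.6% higher in SJY. The sum of 6 neutrophil markers was between 6798 and 11727 FPKM in SJY, 1251 and 15610 FPKM in ALI, and 42.9 and 84.7 FPKM in control, with 6 of 6 higher in both. Type II markers summed to between 17299 and 19846 FPKM in SJY, 5825 and 20673 FPKM in ALI, and 16188 and 24829 FPKM in control, and 2 of 7 were lower in ALI and 4 of 7 in SJY. Club cell markers summed to between 7850 and 13488 FPKM in SJY, 5367 and 8552 FPKM in ALI, and 10940 and 17121 FPKM in control. Of the 3 club markers 2 were lower in ALI and 1 in SJY. Of 6 macrophage markers 3 were higher in ALI and 2 in SJY, and 0 were lower. Of 3 ciliated and 5 smooth muscle markers tested, 0 were called in either comparison with control. Of 4 endothelial markers tested 1 was lower in each comparison with control, and the endothelial gene Cldn5 was listed at 0 in all libraries. Fibroblast markers went both ways, with 2 of 6 tested higher and 0 lower in ALI, and 2 higher and 1 lower in SJY. The part of these cell types in the differences of Fmo1 and Fmo2 was not tested.

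Within groups, deviations from the group mean of log2 values were correlated over the 15 libraries, with 100000 permutations inside groups. The 42 relations were of members with each other and with the mean log2 level of each marker list, not its summed FPKM. Of these, 9 had a Benjamini-Hochberg adjusted permutation p of Pearson's r under 0.05. Fmo2 and Fmo4 gave r = 0.947 (permutation p = 0.00102, adjusted 0.0161) and Spearman's rho = 0.893 (permutation p = 0.00012, adjusted 0.00504), and r = 0.781 without ALI replicates 1 and 5. Fmo1 and the type I markers gave r = 0.939 (adjusted permutation p = 0.0161), rho = 0.850 (adjusted permutation p = 0.00952) and r = 0.762 without ALI replicates 1 and 4. Among the other relations that passed, Fmo1 gave r = 0.911 with endothelial and 0.922 with fibroblast markers. Fmo2 gave r = 0.902 with type II, 0.928 with type I, 0.921 with fibroblast and 0.916 with endothelial markers, and Fmo4 gave 0.900 with fibroblast markers (adjusted permutation p 0.0161 to 0.042 over these). By Spearman's rho, Fmo1 and Fmo4 with fibroblast markers did not pass (adjusted permutation p = 0.0545 each). Nor did Fmo2 with type I (0.0643) or endothelial markers (0.0502). By rho and not by r, Fmo4 with type II markers passed (rho = 0.829, adjusted permutation p = 0.0104). So did Fmo5 with neutrophil markers (rho = -0.657, adjusted permutation p = 0.04998). Without ALI replicate 1 neither passed by rho (adjusted permutation p = 0.389 and 0.315). Without ALI replicate 1 only, the r of Fmo2 and Fmo4 was 0.740 (adjusted permutation p = 0.0993), that of Fmo1 and the type I markers was 0.71 (adjusted permutation p = 0.120), and none of the 9 passed. The 1 of 42 that did was another, Fmo1 with ciliated cell markers (r = -0.830, adjusted permutation p = 0.0311), which with all 15 libraries had r = -0.272 (adjusted permutation p = 0.653). Without ALI replicate 3 only, 0 of 42 passed.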

How the data were processed

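RNA came from TRIzol extraction, and 1 µg of it went into a NEBNext Ultra library, per the labels' protocols. Per the submitters' processing notes, cutadapt, HISAT2, StringTie and the build Rnor_6.0 were used. Versions, the strand setting and any scaling between libraries are not given in the sources used here. The authors deposited FPKM values, 1 column for each library, as the file headers name them. Read counts were not used here, so depth is unknown and no counting interval is given.

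Values were turned into log2(FPKM + 1), which understates the change of low genes. The filter required 1 FPKM in 5 or more of the 15 libraries, which 13457 genes met. limma 3.58.1 in R 4.3.3 fitted the 3 groups together (eBayes with trend and robust settings, two-sided), and p-values were adjusted by Benjamini-Hochberg over all genes tested. The fit was tested on simulated data. Correlations, counts and figures were made in Python 3.11.15.

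The members and lists were chosen with earlier results of these data known. From each list, at most 3 called genes a direction were named, by size of change, and the 2 of highest mean if none was called. This was applied to the comparisons with control only, because no list gene was called in SJY against ALI. Cdo1 in SJY, Slc6a6 in ALI, Nr3c1 in SJY and Aox3 were named outside this rule after their values were seen. Marc1 and Marc2 are the table's older symbols of Mtarc1 and Mtarc2. Fmo12, Pgd, Ado, Gadl1, Adh1, Ces1f, Gstm2, Ugt1a1 and Tmt1a had no match. Some genes of the family and lists are not reported here. Alternatives were another scaling, pseudocount, filter, variance model and set of groups, array weights, a replicate block, and leaving out each library.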

Additional observations from a re-analysis of the deposited data

Results flagged for a closer look

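In 15 groups examined (5 family genes in 3 groups of 5 libraries), 2 held a library far from the others, where the gap to the nearest library divided by the range passed 0.71. Chance alone gives about 1 in 20 groups. Fmo2 in control replicate 4 was 580.3 FPKM, below the other controls at 970.0 to 997 FPKM (gap over range 0.935). Fmo5 in ALI replicate 3 was 15.6 FPKM, above the other ALI libraries at 7.27 to 8.23 FPKM (gap over range 0.884).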

How the results depend on the processing

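Depth cannot be known from FPKM, the labels do not say what a library pools, and 1 ALI library carries much of the spread in that group.

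Fmo2 stayed lower against control with each library left out, between -3.32 and -2.35 (log2) for ALI and between -3.11 and -2.86 for SJY, and Fmo1 between -2.09 and -1.18 for ALI and between -1.27 and -1.04 for SJY. In SJY against ALI, Fmo2 ran between -0.60 and 0.37 and Fmo4 between -0.04 and 0.59. Fmo5 changed sign in every comparison. Members called in ALI against control were 1 of 4 (Fmo2) without control replicate 5 or with only the 2 groups compared, and in SJY against control 2 of 4 without ALI replicate 1, with array weights or with only the 2 groups compared. With the replicate block, members called in ALI against control were 0 of 4.

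Genes called in ALI against control (2366) were 1332 with only the 2 groups compared, 3959 with array weights and 1556 to 2897 leaving out 1 library (1556 without control replicate 7 and 1564 without control replicate 5). In SJY against control (4390) they were 7654 with array weights and 3359 to 5956 leaving out 1 library. In SJY against ALI (1) limma called 0 with another scaling, pseudocount 0.1, no filter, no trend or robust settings, or only the 2 groups compared (1394 to 1853 genes at an unadjusted p under 0.05). It called 478 with array weights and 0 to 181 leaving out 1 library, with 1186 to 2636 genes at an unadjusted p under 0.05, 181 called without ALI replicate 1 and 5 without control replicate 5. Pathway genes called there (0) were 3 with array weights and 0 to 1 leaving out 1 library.

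Same-numbered libraries of different groups deviated with correlations between -0.39 and 0.30. Such values cannot decide whether the numbers pair libraries, and the main fit took none as pairs. Own numbers correlated best for 5 of 6 libraries of SJY and control, 4 of 8 of SJY and ALI, and 1 of 4 of ALI and control. With the replicate block 313 genes were called in ALI against control and 1142 in SJY against control, with 5 and 10 pathway genes and 0 and 1 members (Fmo2).

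Of the correlations 5 passed with another scaling (9 without) and 0 to 10 leaving out 1 library, with 2 without SJY replicate 5, 1 without ALI replicate 1, 0 without ALI replicate 3 and 4 without ALI replicate 5. With that scaling r was -0.12 for Fmo2 and Fmo5 and -0.15 for Fmo4 and Fmo5, and r of Fmo1 and Fmo5 ran between -0.50 and 0.0443 leaving out 1 library. Rfk in ALI against control was -0.15 with array weights and between -0.14 and 0.27 leaving out 1 library. Fmo6 in SJY against ALI was 0.0066 with pseudocount 0.1 and between -0.21 and 0.0205 leaving out 1 library. The cause of these shifts was not tested. Single-gene results of the named genes other than the members were also counted over the settings that leave out no library. The replicate block kept direction and side of the threshold for 18 and ended 35 calls. The other settings kept 345, ended 13 and gained 1.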
